A study of Mus musculus with 6 samples.

Results

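*Gas5* and the small nucleolar RNA host genes *Snhg1*, *Snhg3*, *Snhg5*, *Snhg6*, *Snhg8*, *Snhg12*, *Snhg15*, *Snhg18* and *Snhg20* were followed in C2C12 cells, 10 genes chosen by their symbols among the 54525 gene rows of the count tables. C2C12, an established line of mouse myoblasts, forms multinucleated myotubes by fusion. The cells carried the genotype WT and received no treatment, and RNA was sequenced from 3 libraries of myoblasts at day 0 (D0), grown with fetal bovine serum, and 3 libraries of myotubes at day 5 (D5), kept in differentiation medium with horse serum. Day, medium and cell state changed together and cannot be told apart. All libraries came from 1 cell line, and nothing in the labels gives separate passages, so that p-values measure only the spread between these samples, which may be technical.

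Small nucleolar RNAs (snoRNAs) guide the chemical modification of ribosomal RNA, with box C/D snoRNAs directing ribose methylation and box H/ACA snoRNAs directing pseudouridylation. In mammals most of them are cut from introns, and the genes described here are hosts whose spliced exons encode no known long protein. The spliced host RNAs typically begin with a terminal oligopyrimidine (TOP) tract like that of ribosomal protein mRNAs and are degraded by nonsense-mediated decay when they are translated. *Gas5* (growth arrest-specific 5) takes its name from its accumulation in growth-arrested fibroblasts, and its RNA is known as a decoy of the glucocorticoid receptor.

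The myoblasts and myotubes differed strongly in their defining markers. All 12 proliferation genes were lower at D5, with a median log2 fold change of -4.97 and a summed level of 2780 to 2810 CPM (counts per 1000000 counts on genes) at D0 and 171 to 183 CPM at D5. All 9 myotube markers were higher, from a sum of 7820 to 8310 CPM to 39400 to 41400 CPM. Of 14 markers of fat, blood, vessel, epithelial and bone cells, 8 were at or under 3 counts in every library, including *Adipoq*, *Cdh5* and *Ptprc*, and the 14 together summed to 5.73 to 6.27 CPM at D0 and 2.49 to 3.12 CPM at D5. The libraries held 36555048 to 40895840 counts on genes at D0 and 25449759 to 25811300 at D5. CPM were scaled with the TMM factors of edgeR. Changes between the days were tested with the quasi-likelihood method of edgeR, and a gene was called at an adjusted p under 0.05. As these are bulk samples, fewer cells with an RNA and less of it per cell cannot be told apart.

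Most of the host RNAs were less abundant in myotubes. *Snhg1*, *Snhg3*, *Snhg5*, *Snhg6*, *Snhg8*, *Snhg12* and *Snhg15* fell, *Snhg18* rose, and *Gas5* and *Snhg20* were not called. Thus 7 of 10 were lower, beside 40.8% of the 16290 genes tested, and 1 of 10 was higher, beside 42.2% of them, so that 8 of 10 were called in either direction, beside 82.9%. The median log2 fold change of the 10 was -0.68, and that of all genes tested was 0.00. Among the 1131 tested genes annotated as lincRNA, processed transcript or antisense RNA, 27.1% were lower and 39.3% higher, with a median of 0.14. The CPM of the 7 lower genes did not overlap between days, which held for 41.1% of all genes in that direction.

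**Figure D1:**
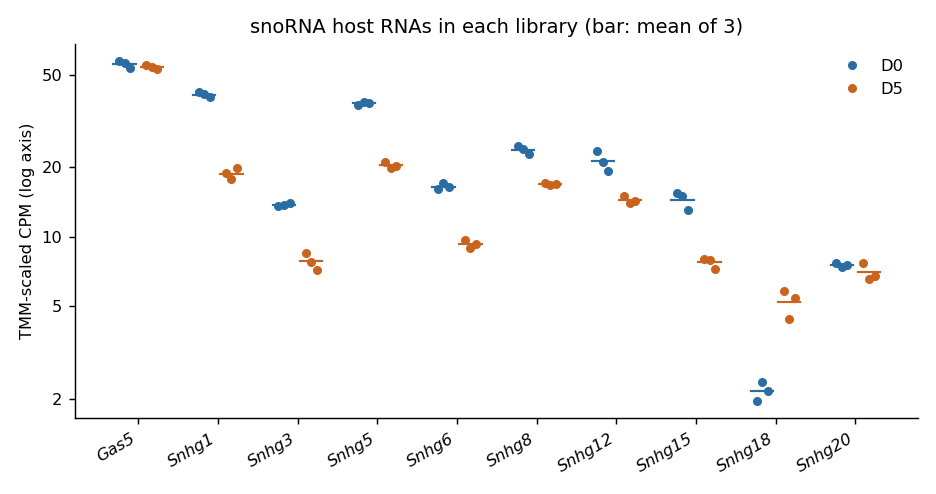
CPM of each of the 10 host RNAs in the 3 D0 and 3 D5 libraries on a log axis, with a short bar at the mean of each group. The D5 points of 7 genes lie below all their D0 points, those of *Snhg18* lie above, and those of *Gas5* and *Snhg20* overlap.

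*Gas5* had the highest CPM of the 10 at both days and was not called. It lay at chr1:161034422-161038539 on the plus strand of GRCm38, and GENCODE annotates 25 transcripts whose exons together cover 91.3% of this span. Its level was 57.2, 55.9 and 53.4 CPM in the D0 libraries and 55.2, 53.8 and 52.7 CPM in the D5 libraries. The groups overlapped, with means of 55.5 ± 1.95 CPM and 53.9 ± 1.27 CPM (SD, n = 3 each). The log2 fold change was -0.04 with a 95% interval from -0.13 to 0.04, and edgeR's adjusted p was 0.341. When libraries were scaled to their total counts instead of TMM, *Gas5* was called lower, with a log2 fold change of -0.13 and an edgeR adjusted p of 0.00585. Against the other hosts in the same library, which needs no scaling between libraries, *Gas5* took a larger share at D5. It made up 24.0%, 23.8% and 23.6% of the summed counts of the 10 genes at D0 and 33.1%, 34.1% and 33.0% at D5. These shares did not overlap, and an exact two-sided permutation test gave p = 0.1, the smallest that 3 against 3 libraries allow.

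Genes with a profile close to that of *Gas5* over the 6 libraries included *Cct8*, *E430024I08Rik*, *Zfp24* and *Ggcx*. They were among the nearest of 11315 genes with enough counts, at distances from 0.0388 for *Cct8* to 0.0518 for *Ggcx* (Euclidean distance between log2 CPM profiles centered on their means). *Cct8* encodes a subunit of the cytosolic chaperonin. None of these 4 was called between the days, with log2 fold changes from -0.05 to -0.02. This follows from how they were picked, by closeness to *Gas5*, which was itself not called.

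*Snhg1* and *Snhg5* lost the most in CPM among the 10. *Snhg1*, whose introns carry a series of box C/D snoRNAs, lay at chr19:8723475-8726443 on the plus strand. It was at 42.0, 41.1 and 40.1 CPM at D0 and at 18.7, 17.6 and 19.7 CPM at D5. Each myotube library was thus under every myoblast library, and the D5 mean was 45.6% of the D0 mean. The log2 fold change was -1.13 with a standard error of 0.0517, and edgeR's adjusted p was 1.06e-18. *Snhg5*, the host of *Snord50a* and *Snord50b*, lay at chr9:88521050-88522929 on the minus strand and was at 36.9, 38.1 and 37.7 CPM at D0 and 20.9, 19.8 and 20.2 CPM at D5. The groups were again apart, with a log2 fold change of -0.89, a standard error of 0.0496 and an edgeR adjusted p of 1.96e-16. Among 50-base stretches of the *Snhg5* transcripts, 10.4% occurred also in other annotated genes, mainly *9330159M07Rik* and *9430037G07Rik*, so its counts may be split among them.

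*Snhg3*, *Snhg6* and *Snhg15* fell from lower starting levels. *Snhg15*, the host of *Snora9* at chr11:6525591-6528760 on the minus strand, was at 15.4, 14.9 and 13.0 CPM at D0 and 8.04, 7.95 and 7.23 CPM at D5. *Snhg6*, the host of *Snord87* at chr1:9941959-9944118 on the minus strand, was at 16.1, 16.95 and 16.3 CPM at D0 and 9.67, 8.92 and 9.28 CPM at D5. For both genes every D5 library was below every D0 library. The log2 fold change of *Snhg15* was -0.90 with a standard error of 0.0810, that of *Snhg6* was -0.82 with 0.0688, and edgeR's adjusted p were 1.89e-11 and 3.18e-12. *Snhg3*, the host of *Snora73a* and *Snora73b* at chr4:132348014-132353686 on the minus strand, was at 13.5, 13.6 and 13.9 CPM at D0 and 8.51, 7.79 and 7.15 CPM at D5. It did not overlap between days either, with a log2 fold change of -0.81, a standard error of 0.0768 and an edgeR adjusted p of 6.28e-11.

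The *Snhg3* counts share sequence with other genes. Of its exonic bases, 71.5% lay within exons of the opposite-strand gene *Gm17300*. On the same strand, 135 bases were shared with *Rcc1*, the exchange factor of the GTPase Ran, and 159 with the hosted *Snora73a*. *Gm17300* held only 11 to 70 counts in a library. It was called lower (log2 fold change -0.87, edgeR adjusted p = 0.0116), although its groups overlapped. The call was lost when D0 replicate 3, D5 replicate 1 or D5 replicate 3 was left out (edgeR, adjusted p = 0.14, 0.0731 and 0.0558). *Rcc1* had a mean of 46.5 CPM at D0 and 16.3 CPM at D5, and its log2 fold change of -1.51 passed edgeR's test with an adjusted p of 4.07e-22. The strand setting of the counting was not given in the sources used here. Genes nested in opposite-strand exons nevertheless kept counts, as given with the hosted snoRNAs, whereas those nested in same-strand exons had none.

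*Snhg8* and *Snhg12* fell least among the 7. *Snhg8*, which hosts *Snora24* at chr3:123507552-123508404 on the minus strand, was at 24.7, 23.8 and 22.6 CPM at D0 and 16.95, 16.6 and 16.9 CPM at D5. *Snhg12*, which hosts *Snora16a*, *Snora44*, *Snora61* and *Snord99* at chr4:132308623-132311024 on the plus strand, was at 23.3, 20.9 and 19.3 CPM at D0 and 14.96, 13.99 and 14.2 CPM at D5. The D5 libraries of both were below all D0 libraries, by a log2 fold change of -0.50 with a standard error of 0.0569 for *Snhg8* and -0.56 with 0.0679 for *Snhg12*. Their adjusted p in edgeR's test were 3.36e-09 and 1.12e-08. Neither was called when libraries were scaled to their ERCC spike-ins, synthetic RNAs added to each sample, at adjusted p of 0.102 and 0.0826.

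*Snhg20* was not called. It hosts a small Cajal body RNA and lay at chr11:117076008-117078955 on the plus strand. Its level was 7.71, 7.37 and 7.57 CPM at D0 and 7.68, 6.57 and 6.79 CPM at D5, with overlapping groups. The log2 fold change was -0.11 with a 95% interval from -0.29 to 0.08, and edgeR's adjusted p was 0.281.

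*Snhg18* was the 1 host that rose, from the lowest level of the 10. It lay at chr15:32240565-32244662 on the minus strand and hosts *Snord123*. It held 73, 99 and 87 counts at D0 and 147, 109 and 135 counts at D5, although the D5 libraries were shallower. These were 1.95, 2.35 and 2.16 CPM at D0 and 5.85, 4.42 and 5.42 CPM at D5, so that every myotube library exceeded every myoblast library. The mean was 2.42-fold higher at D5, with a log2 fold change of 1.28, a standard error of 0.137 and an edgeR adjusted p of 8.23e-10. None of the 50-base stretches of its transcript occurred in another gene. With scaling to the spike-ins its log2 fold change was 0.65 and was not called (adjusted p = 0.352). That scaling moved the median of all genes to -0.58, and relative to this median *Snhg18* was at 1.23, *Snhg1* at -1.15 and *Gas5* at -0.02.

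**Figure D2:**
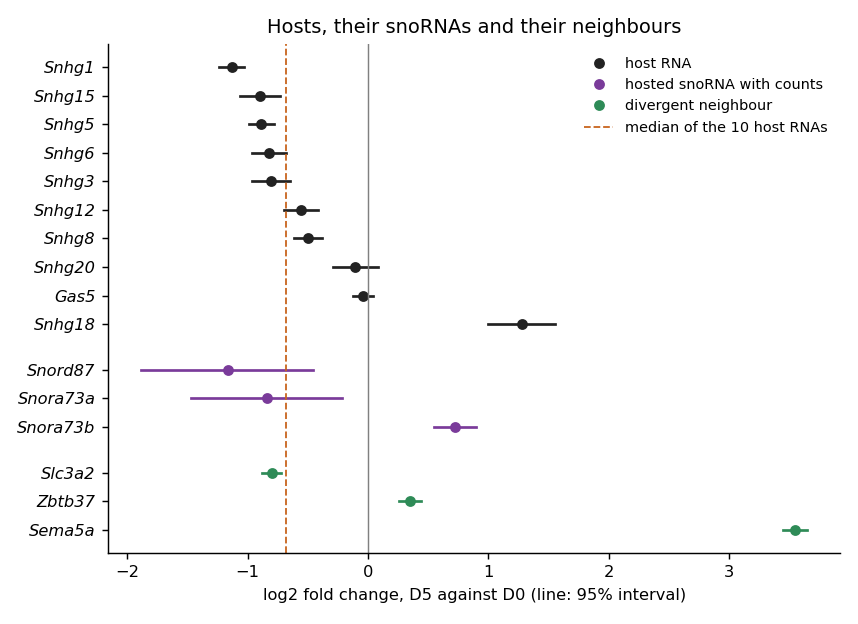
Log2 fold change of D5 against D0 (dot) with its 95% interval (line) for the 10 host RNAs, the 3 hosted snoRNAs with enough counts to be tested and the 3 divergent protein-coding neighbors. Of these neighbors, *Zbtb37* overlaps the start of the *Gas5* span. Between *Snhg1* at -1.13 and *Snhg18* at 1.28, the intervals of *Gas5* and *Snhg20* include 0, and the dashed line marks the median of the 10 at -0.68.

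Levels were compared between the genes as TPM (transcripts per 1000000), which divide counts by exonic length. At D0 the order was led by *Snhg8* at 96.2 TPM and *Snhg5* at 75.2 TPM, each above the next gene in all libraries. *Gas5* at 51.1, *Snhg6* at 49.7, *Snhg3* at 48.0 and *Snhg1* at 47.8 TPM followed, and neighbors among these 4 overlapped. *Snhg15* at 36.7, *Snhg12* at 30.5, *Snhg20* at 9.34 and *Snhg18* at 5.02 TPM came last and were each apart from the next. At D5 *Snhg8* at 61.2 TPM still led, followed by *Gas5* at 44.5 TPM and *Snhg5* at 36.5 TPM, all without overlap with the next. *Snhg6* and *Snhg3* overlapped at 25.2 and 24.6 TPM, as did *Snhg1*, *Snhg12* and *Snhg15* at 19.5, 18.6 and 17.7 TPM. *Snhg18* at 10.9 TPM was above *Snhg20* at 7.79 TPM, the reverse of their D0 order. TPM are not scaled by TMM. In this unit every D5 library of *Gas5* (43.2 to 46.6) was below every D0 library (49.8 to 51.8). The same held for *Snhg20* (7.17 to 8.72 at D5, 9.15 to 9.50 at D0), though both genes overlapped in CPM. Exonic length here is the union of all annotated transcripts, which covers the whole span of *Snhg1*, *Snhg8* and *Snhg12* but 17.4% of that of *Snhg3*. The union also holds bases shared with same-strand genes, 29.8% for *Snhg3*, 20.9% for *Snhg1* and 0% for *Snhg6*. Reads there may not have been counted for the host, so these levels and their order depend on the annotation.

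The starts of the host genes are shown because a TOP tract is the feature that these RNAs are known to share with ribosomal protein mRNAs. Below are 60 bases around the RefSeq start of each gene on GRCm38.p6, 20 before it and 40 from it on, 5′ to 3′ on the strand of the gene. Capitals mark a pyrimidine tract, here a C followed by at least 4 pyrimidines that begins within 10 bases of the start. RefSeq gives *Gas5* 2 starts, of which the one with a tract is shown.
Gas5: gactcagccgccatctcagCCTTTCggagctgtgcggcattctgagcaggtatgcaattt
Snhg8: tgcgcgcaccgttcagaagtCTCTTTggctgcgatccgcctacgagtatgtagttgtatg
Snhg12: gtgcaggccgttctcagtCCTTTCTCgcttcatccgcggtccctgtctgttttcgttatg
Snhg3: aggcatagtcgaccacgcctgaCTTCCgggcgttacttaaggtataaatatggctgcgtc
Snhg5: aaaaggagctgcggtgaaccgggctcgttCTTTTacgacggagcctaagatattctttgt
Snhg18: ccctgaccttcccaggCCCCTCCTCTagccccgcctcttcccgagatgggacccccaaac
Snhg1: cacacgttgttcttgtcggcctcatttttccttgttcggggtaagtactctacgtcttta
Snhg15: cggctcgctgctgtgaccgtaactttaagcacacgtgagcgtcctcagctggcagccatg
Snhg20: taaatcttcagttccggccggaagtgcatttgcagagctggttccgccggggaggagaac

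The windows lie at chr1:161035146-161035205 for *Gas5*, chr3:123508297-123508356 for *Snhg8*, chr4:132308658-132308717 for *Snhg12*, chr4:132353647-132353706 for *Snhg3*, chr9:88522858-88522917 for *Snhg5*, chr15:32244623-32244682 for *Snhg18*, chr19:8723467-8723526 for *Snhg1*, chr11:6528721-6528780 for *Snhg15* and chr11:117076763-117076822 for *Snhg20*. *Snhg6* had no RefSeq window, and GENCODE annotates 5 transcripts of it. The transcript shown was picked because it opens with a tract (capitals), so it is no evidence of a tract and is not counted below.
Snhg6: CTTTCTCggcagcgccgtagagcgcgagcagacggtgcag

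A tract by this definition was found in 6 of the 10 member windows (9 genes), beside 30.7% of all 32851 RefSeq windows and 54.4% of 68 windows of ribosomal protein genes. Such a run of pyrimidines counted from a C at the start base itself was found in 2 of them (*Gas5* and *Snhg8*), beside 2.51% of all and 20.6% of ribosomal protein windows. Genes with a tract were *Snhg3*, *Snhg5*, *Snhg8* and *Snhg12*, which fell, *Gas5*, which was not called, and *Snhg18*, which rose. Genes without a tract in this window were *Snhg1* and *Snhg15*, which fell, and *Snhg20*, which was not called. In the full RefSeq windows of 300 bases, searched on both strands, the GC box GGGCGG occurred in 8 of the 10 member windows and 35.7% of all, the TATA motif TATAAA in 4 of 10 and 13.6%, and the E-boxes CACGTG and CAGCTG in 1 of 10 each, against 7.15% and 16.3%. These matches describe letters in annotated windows, not factor binding.

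The annotation places 32 snoRNA or scaRNA genes inside the 10 hosts on the same strand, 10 in *Gas5*, 8 in *Snhg1*, 5 in *Snhg12*, 2 each in *Snhg3* and *Snhg5*, and 1 in each of the others. Of these, 28 held 0 counts in all 6 libraries, and all 28 lie wholly within exonic sequence of an annotated host transcript. The same was seen across the annotation. Of 164 snoRNA or scaRNA genes that lie wholly within same-strand exons of another gene, 0 had counts, whereas 22.9% of 1312 that share no base with the exons of another gene did. Of 15 that lie wholly within exons of an opposite-strand gene only, 8 had counts, 35688 in all over the 6 libraries, of which *Snora73b* in *Snhg3* held 35446. A count of 0 for *Snord47*, *Snord80* or *Snord22* therefore carries no information on the level of that snoRNA.

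**Figure D3:**
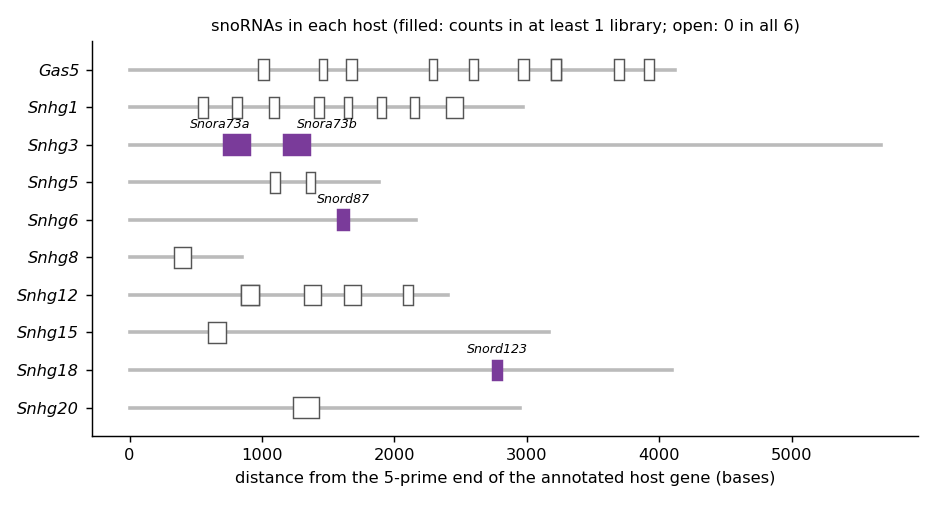
Position of the annotated snoRNA genes along each host, in bases from the 5′ end of the host gene, with the gray line giving the span of the host. Filled boxes are the 4 snoRNAs with counts, in *Snhg3*, *Snhg6* and *Snhg18*, and open boxes are the 28 at 0 in all libraries; the 2 annotated copies of *Snord80* and of *Snora16a* overlap.

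The 4 hosted snoRNAs with counts are shown from the GENCODE transcripts on GRCm38, 5′ to 3′. Capitals mark the ACA box of the H/ACA snoRNAs *Snora73b* (chr4:132352322-132352526, minus strand) and *Snora73a* (chr4:132352775-132352979, minus strand), and the C and D boxes of *Snord87* (chr1:9942463-9942549, minus strand) and *Snord123* (chr15:32241853-32241923, minus strand).
Snora73b: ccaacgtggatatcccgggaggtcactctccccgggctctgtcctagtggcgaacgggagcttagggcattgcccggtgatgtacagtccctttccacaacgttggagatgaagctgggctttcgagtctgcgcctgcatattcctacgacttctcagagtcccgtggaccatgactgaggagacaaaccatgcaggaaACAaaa
Snora73a: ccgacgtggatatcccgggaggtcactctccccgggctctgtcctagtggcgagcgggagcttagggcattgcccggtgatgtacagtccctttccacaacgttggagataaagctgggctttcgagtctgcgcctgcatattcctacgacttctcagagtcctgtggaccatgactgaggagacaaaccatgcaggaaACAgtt
Snord87: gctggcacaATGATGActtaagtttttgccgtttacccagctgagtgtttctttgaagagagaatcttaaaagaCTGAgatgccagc
Snord123: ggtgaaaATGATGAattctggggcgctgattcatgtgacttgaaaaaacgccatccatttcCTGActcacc

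*Snora73b* belongs to the U17 snoRNAs, which act in the cleavage of ribosomal RNA precursors, and it rose while its host *Snhg3* fell. Myoblasts held 5635, 6899 and 4962 counts, and the shallower myotube libraries held 4707, 7096 and 6147. Scaled, the means were 146 ± 20.8 CPM in myoblasts and 241 ± 50.5 CPM in myotubes (SD, n = 3 each). D5 replicate 1 was the lowest myotube library at 187 CPM, above the highest myoblast library at 164 CPM. The log2 fold change was 0.72 with a standard error of 0.0868, and edgeR's adjusted p was 8.39e-09. With scaling to the spike-ins it was 0.22 and not called (adjusted p = 0.764). The ratio to the host needs no scaling between libraries. *Snora73b* had 11.1, 12 and 8.86 counts per *Snhg3* count at D0 and 22.0, 37.0 and 34.5 at D5, with no overlap and an exact two-sided permutation p = 0.1, the smallest for this design. The mean ratio was 2.92 times as high at D5. Of the 115 snoRNA and scaRNA genes tested, 32.2% were higher and 32.2% lower, with a median log2 fold change of -0.20.

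The other hosted snoRNAs had few counts. *Snora73a*, in the same host, held 23, 33 and 25 counts at D0 and 10, 8 and 10 at D5, a log2 fold change of -0.84 with a standard error of 0.307 and an edgeR adjusted p of 0.0131. This call was lost with DESeq2 (adjusted p = 0.0758), without D0 replicate 2 (edgeR, adjusted p = 0.0562) and without D5 replicate 2 (edgeR, adjusted p = 0.0573). Of the 205 bases of *Snora73a*, 159 lay within same-strand exons of *Snhg3*. Reads there may not have been counted for it, so its counts say little about its level. The paralogs *Snora73a* and *Snora73b* differ at 7 of 205 bases and share a stretch of 56, so short reads can be misassigned between them. The opposite-strand gene *Gm17300* contains all 156 of the 50-base stretches of *Snora73b* and only a part of those of *Snora73a*. *Snord87* in *Snhg6* held 32, 48 and 18 counts at D0 and 10, 7 and 10 at D5. Its lowest D0 library, at 0.447 CPM, was just above its highest D5 library, at 0.402 CPM, and its log2 fold change of -1.17 passed edgeR's test with an adjusted p of 0.00314. *Snord123* in *Snhg18* held 2, 1 and 3 counts at D0 and 3, 3 and 5 at D5, too few to be tested.

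Of the hosts, 3 share a start region with a protein-coding gene on the opposite strand. *Sema5a*, a semaphorin of axon guidance, begins 148 bases from *Snhg18*. Its level was 9.07, 9.20 and 8.61 CPM at D0 and 103, 104 and 108 CPM at D5. It rose in every myotube library, 11.7-fold, with a log2 fold change of 3.55, a standard error of 0.0487 and an edgeR adjusted p of 2.53e-32. Both genes of this region were thus higher at D5, *Sema5a* more so, with 4.66, 3.91 and 3.99 *Sema5a* counts per *Snhg18* count at D0 and 17.6, 23.5 and 19.9 at D5. These ratios did not overlap (exact two-sided permutation p = 0.1, the smallest possible).

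At the *Snhg1* start, *Slc3a2*, the heavy chain of amino acid transporters, begins 106 bases away and fell as well. Its mean went from 187 ± 10.3 to 107 ± 3.63 CPM (SD, 3 libraries each), with a log2 fold change of -0.80 and an edgeR adjusted p of 4.90e-18. *Snhg1* had 0.219, 0.212 and 0.229 counts per *Slc3a2* count at D0 and 0.181, 0.159 and 0.182 at D5, so that the host was lower relative to its neighbor in all myotube libraries. At the *Gas5* start, *Zbtb37*, a zinc finger gene, begins 427 bases inside the annotated *Gas5* span, so that the genes overlap there. *Zbtb37* went from 35.8 ± 1.71 to 45.6 ± 0.722 CPM (SD, 3 libraries each). It rose by a log2 fold change of 0.35 with an edgeR adjusted p of 3.95e-08, but with scaling to the spike-ins its value was -0.21 and not called. *Gas5* had 1.69, 1.54 and 1.44 counts per *Zbtb37* count at D0 and 1.19, 1.18 and 1.17 at D5, which did not overlap.

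**Figure D4:**
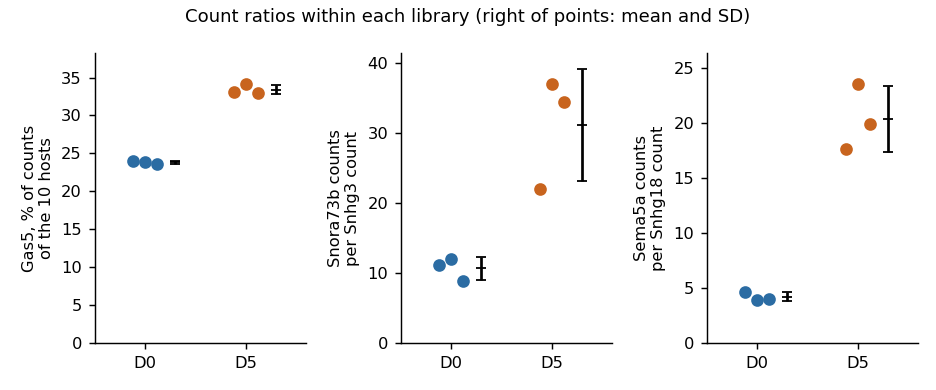
Ratios of counts within each library, which do not depend on scaling between libraries: the share of *Gas5* in the counts of the 10 hosts, *Snora73b* counts per *Snhg3* count and *Sema5a* counts per *Snhg18* count, with each of the 3 libraries of a day as a point and the mean and SD beside them. In each panel all D5 points lie above all D0 points.

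The mRNAs of the core proteins that package snoRNAs were lower in myotubes in 7 of 8 cases, beside 40.8% of all genes tested. All 4 for the core proteins of box C/D particles fell, with a median log2 fold change of -1.05. The methyltransferase *Fbl* (fibrillarin) went from 67.2 ± 2.06 to 31.3 ± 1.54 CPM (SD, n = 3 each), and the log2 fold changes were -1.11 for *Fbl*, -1.34 for *Nop56*, -0.99 for *Nop58* and -0.58 for *Snu13*. Of the 4 box H/ACA proteins, the pseudouridine synthase *Dkc1* (-0.62), *Gar1* (-1.45) and *Nhp2* (-0.58) fell, and *Nop10* was higher (0.55), a sign that turned with scaling to the spike-ins (-0.04). Of 10 assembly factors, 5 were lower, among them *Ruvbl2* (-1.24) and *Nolc1* (-0.56), and 3 were higher, among them *Znhit6* (0.68) and *Shq1* (0.34, but -0.22 with scaling to the spike-ins). These shares were near those of all genes tested, 40.8% lower and 42.2% higher, and the median of the assembly factors was -0.18.

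Ribosomal protein mRNAs and other mRNAs known for TOP starts had medians closer to 0 than the host RNAs. These lists follow what is known of the genes, not the start windows above. Over all genes tested, 40.8% were lower and 42.2% higher. Of 79 cytosolic ribosomal protein genes, 55 were lower, 9 higher and 15 not called, with a median log2 fold change of -0.28. *Rpl13a* (-1.34) fell most, and *Rpl14* (0.20) and *Rpl9* (0.17) were highest, though both were negative with scaling to the spike-ins, at -0.36 and -0.39. The 9 higher calls were 4 without D0 replicate 3, 2 with total counts, 3 without the filter on low counts and 0 with the spike-ins. Of 16 other TOP mRNAs, 9 were lower and 5 higher, with a median of -0.13. Among them *Hnrnpa1* (-1.79) and *Pabpc1* (-1.49) fell most, and *Naca* (0.88) and *Tpt1* (0.52, but -0.07 with the spike-ins) rose most. The 5 higher calls were 3 without D0 replicate 3, 3 with total counts and 0 with the spike-ins. The host RNAs were also set against the ribosomal protein genes within each library. *Gas5* had 1.73, 1.73 and 1.76 counts per 1000 ribosomal protein counts at D0 and 2.11, 2.04 and 2.00 at D5. The other 9 hosts together had 5.50, 5.56 and 5.69 at D0 and 4.25, 3.94 and 4.07 at D5. Neither ratio overlapped between days, *Gas5* being higher and the other hosts lower relative to ribosomal protein RNA (exact two-sided permutation p = 0.1 for each, the smallest possible).

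**Figure D5:**
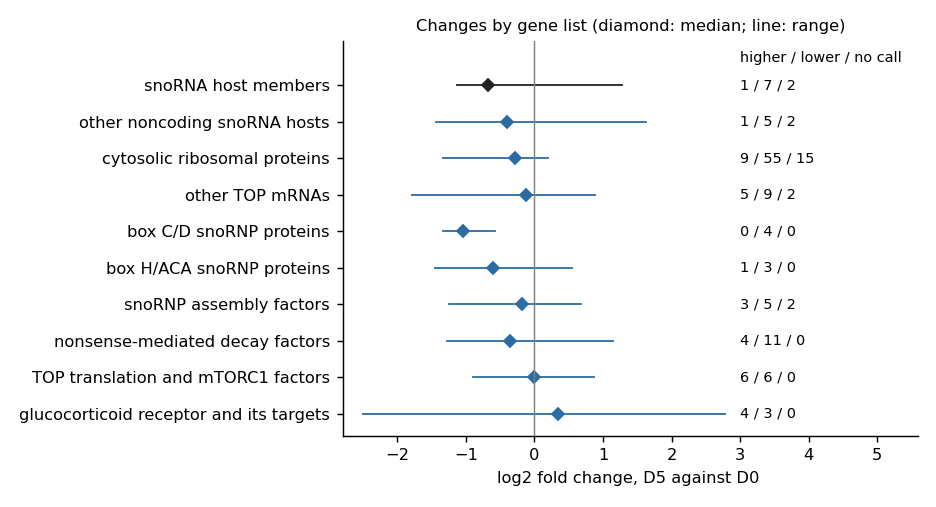
Median (diamond) and range (line) of the log2 fold changes of D5 against D0 in each gene list, with the number of genes called higher, lower or not called at the right. The 10 host RNAs have a median of -0.68, below that of the ribosomal protein genes at -0.28 and above that of the 4 box C/D proteins at -1.05.

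Among 12 further noncoding snoRNA hosts, 10 had rows in the tables and 8 were tested. Of these, 5 were lower, 1 was higher and 2 were not called, beside 40.8% lower and 42.2% higher of all genes tested. Their median was -0.40. *Dancr* (-1.44), *Snhg17* (-1.23), *Zfas1* (-0.86), *Snhg4* (-0.41) and *Epb41l4aos* (-0.36) fell. *Snhg14*, the long host of the imprinted *Snord115* and *Snord116* clusters, rose from 2.52 ± 0.408 to 7.74 ± 0.447 CPM (SD, n = 3 each), with a log2 fold change of 1.63 and an edgeR adjusted p of 1.69e-13. *Snhg9* and *Snhg10* had values of -0.39 and -0.33 and did not pass the test, and *Snhg11* and *Rian* were too low to be tested. With scaling to the spike-ins 3 were lower and 0 higher.

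Genes that act on host RNAs differed by list, most nonsense-mediated decay factors being lower and the genes of mTORC1 and TOP translation mixed. The shares to set beside their counts are 40.8% lower and 42.2% higher over all genes tested. Of 15 nonsense-mediated decay factors, 11 were lower and 4 higher, with a median of -0.36. *Upf3a* (-1.28) and *Magohb* (-1.06), a component of the exon junction complex, fell most, and the endonuclease *Smg6* (1.14) and *Upf2* (0.36, but -0.21 with scaling to the spike-ins) rose most. Of 12 genes of mTORC1 and TOP translation, 6 were higher and 6 lower, with a median of -0.01. The pathway inhibitor *Tsc2* (0.87) and the mTORC1 subunit *Rptor* (0.78) rose, and the translation repressor *Eif4ebp1* (-0.90) and the GTPase *Rheb* (-0.76) fell. Scaling to the spike-ins left 3 decay factors lower and 0 higher, 2 genes of mTORC1 and TOP translation lower and 0 higher, 7 ribosomal protein genes and 3 other TOP mRNAs lower, and 1 box H/ACA protein and 1 assembly factor lower.

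Of the glucocorticoid receptor and its known targets, 4 of 7 tested genes were higher and 3 lower, beside 42.2% and 40.8% of all genes tested. The receptor *Nr3c1* rose from 69.1 ± 2.27 to 137 ± 4.43 CPM (SD, 3 libraries each), by 0.99 on the log2 scale (edgeR, adjusted p = 5.86e-21). The targets *Tsc22d3* (2.78), *Klf9* (1.06) and *Per1* (0.35, but -0.23 with scaling to the spike-ins) were higher, and *Dusp1* (-2.50), *Sgk1* (-0.80) and *Fkbp5* (-0.36) were lower. *Zbtb16* had 0 counts in all libraries. With scaling to the spike-ins 1 of these genes was called higher and 2 lower, and *Nr3c1* (0.43) was not called. The mean ratio of *Gas5* to *Snhg1* counts, the hosts with the highest and second highest CPM at D0, was 1.35 ± 0.0172 at D0 and 2.89 ± 0.192 at D5 (SD, n = 3 each), with no overlap between libraries.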

How the data were processed

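Counts of reads per gene, made by the authors with featureCounts on GRCm38 (mm10), were deposited without normalization, 1 table per library. The labels name Tophat2 and the paper's methods name HISAT2 as aligner; the annotation release, strand setting, RNA selection and handling of reads with several matches are not given in the sources used here. Of the gene rows, 97.8% carried the same versioned identifier as GENCODE M21, including all 10 members. Spike-in rows and an unnamed row that equalled the column total were left out.

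TMM factors, CPM and p-values came from edgeR 4.0.16 in R 4.3.3 (quasi-likelihood test after filterByExpr, Benjamini-Hochberg over 16290 genes). TPM used exonic length, and standard errors are the log2 fold change over the root of the F statistic. Named were every member, hosted snoRNA and divergent neighbor (5′ ends within 1000 bases), all genes of lists of at most 8, the 2 largest changes in each direction of other lists, and the 5 genes nearest to *Gas5*; some of these are not reported here, and genes sharing exons with a member were added after their values were seen. Members and lists were chosen with earlier results of these data known. Alternatives were DESeq2 1.42.0, total-count and spike-in scaling, no filter, a minimum of 10 counts in all libraries, omission of each library and a replicate block. Scripts were tested on simulated data.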

Additional observations from a re-analysis of the deposited data

Results flagged for a closer look

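The ERCC spike-ins, which the main comparison leaves out and only the spike-in scaling uses, took 2.09% of the counts of D5 replicate 3, beside 1.2% and 0.720% in the other D5 libraries and 0.726% to 0.859% at D0.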

How the results depend on the processing

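The main counts were 13510 genes called, 6869 higher and 6641 lower, with 7 hosts lower and 1 higher. Scaling to the spike-ins, whose share varied most among the D5 libraries, gave 5560 called genes, 1813 higher and 3747 lower (32.6% of calls higher, against 50.8%), 5 hosts lower and 0 higher, and a median of -1.25 for the 10 hosts. It turned the sign of *Zbtb37* (-0.21), *Rpl14* (-0.36), *Rpl9* (-0.39), *Tpt1* (-0.0663), *Nop10* (-0.0397), *Shq1* (-0.22), *Upf2* (-0.21) and *Per1* (-0.23). Total counts gave a median of -0.77 for the hosts and called 8 of them lower, *Gas5* among them. DESeq2, no filter and at least 10 counts in every library each called 7 hosts lower and 1 higher; under the last, *Snora73a* and *Snord87* had no value. Leaving out each library gave 13236 to 13599 called genes, 7 lower hosts and 1 higher, and a median from -0.72 to -0.64.

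Samples with the same number in their titles correlated by 0.0329, 0.0645 and 0.0277 in their deviations from the group means. Each correlated best with its own number. With 3 numbers, values this small cannot decide whether a number stands for a shared batch. With the number as a replicate block, 13558 genes were called, with 7 hosts lower and 1 higher.

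Low counts limit *Snhg18*, *Snora73a*, *Snord87* and *Snord123*, and 3 libraries a group allow no exact p under 0.1.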
